A study of Rattus norvegicus with 14 samples.

Results

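Half-methylated CpG-rich tiles are 1 kb stretches of the rat genome that hold many CpG cytosines and in which the unoperated oesophagus carried methylation on about as many reads as it lacked it. They were chosen from reduced representation bisulfite sequencing of rat oesophagus, an assay that reads methylation near MspI cut sites. A tile was counted from position 1 of chromosomes 1 to 20. It had to hold 40 or more cytosine positions listed in any of the 13 libraries, of which at least 3 were listed in 3 or more libraries of each group. These last cytosines are called the shared cytosines of the tile, and tile methylation is the sum of their methylated reads over the sum of all their reads. Methylation had to lie between 35 and 65% in every library of the non-surgical controls (NSC), each with at least 15 summed reads. Windows of 20 kb with 5 or more tiles of 60 or more listed cytosines were left out. The rule found 206 of the 1933118 tiles with a listed cytosine. All but the methylation range was met by 12203 tiles, called CpG-rich tiles here.

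The libraries came from male rats of 8 to 9 weeks and fell into 3 groups. NSC were full-thickness oesophagus without surgery (4 libraries). The other groups had a surgical oesophageal defect repaired with an acellular bi-layer silk fibroin scaffold. Day 1 was tissue of the host oesophagus, punched out along the defect's edge with a 2 mm margin, 1 day after the operation (5 libraries). Week 1 was regenerated tissue taken where the graft lay, 1 week after it (4 libraries; 1 more sample was not analysed here). No strain is labelled, and nothing states that each library is its own animal, so every p-value below rests on library-to-library spread that could be technical. The groups differ in site as well as time, all are bulk tissue, and cell makeup was not measured, so a change within cells and a change in which cells were sampled cannot be told apart. Nor can a tile mean tell methylation of one chromosome copy from methylation in a share of the cells.

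In mammals most CpG-rich promoters are unmethylated on both chromosome copies. Imprinting control regions are the textbook exception: the copy from one parent is methylated and the other is not, the mark is set in the germ line and is kept in body tissues, and bulk DNA reads near the middle at every cytosine. A tile can also read near the middle because cells of a tissue differ, or because fully methylated and unmethylated cytosines lie side by side in it. Levels of single cytosines and levels in the operated tissues were not used by the rule and are described below.

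Promoters were named by laying the CpG spacing of RefSeq promoter sequences (rat build GRCr8) over the positions listed in the files (build mRatBN7.2). That placed 7223 promoters, 18 of them in 17 of the 206 tiles. For 3 of these the 250 bases before the start are shown, because 2 belong to imprinted genes and the other shows a tile whose value does not come from its promoter. The sequences are RefSeq's. Capitals mark the CpGs at which at least one library listed a cytosine. Each position is that of the whole 300-base window as placed on mRatBN7.2, plus strand, of which the first 250 bases are printed.
Gnas, chr3:163071167-163071466: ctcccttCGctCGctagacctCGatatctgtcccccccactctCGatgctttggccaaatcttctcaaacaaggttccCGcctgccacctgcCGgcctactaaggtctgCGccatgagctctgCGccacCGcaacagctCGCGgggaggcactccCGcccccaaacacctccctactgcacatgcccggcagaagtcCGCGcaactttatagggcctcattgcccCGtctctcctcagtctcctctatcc
Mest, chr4:59354195-59354494: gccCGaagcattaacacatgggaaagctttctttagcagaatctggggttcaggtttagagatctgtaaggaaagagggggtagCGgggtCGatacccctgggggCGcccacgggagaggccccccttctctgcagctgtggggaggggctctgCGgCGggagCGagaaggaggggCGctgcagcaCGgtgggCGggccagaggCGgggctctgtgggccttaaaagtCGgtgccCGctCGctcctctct
Entpd6, chr3:139575450-139575749: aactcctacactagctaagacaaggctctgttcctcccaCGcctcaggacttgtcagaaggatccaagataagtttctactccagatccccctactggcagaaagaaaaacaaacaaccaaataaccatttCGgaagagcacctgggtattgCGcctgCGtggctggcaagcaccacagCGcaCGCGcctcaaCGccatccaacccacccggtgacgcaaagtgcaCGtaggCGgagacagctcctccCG
In the printed stretch, 15 of 16 CpGs of Gnas, 14 of 15 of Mest and 11 of 13 of Entpd6 were listed.

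Gnas encodes the stimulatory G protein alpha subunit and lies in an imprinted locus. The tile over the first of its placed promoters (chr3:163071001-163072000) had 9 shared cytosines. It read 42.5, 42.9, 39.3 and 51.3% in the NSC libraries, 44.96, 31.9, 44.1 and 42.9% in day 1 replicates 1, 3, 4 and 5, and 37.9, 74.4, 35.9 and 42.3% in week 1. All groups overlapped, and week 1 replicate 2 alone stood above the rest. Means were 44.0% ± 5.1 (SD, n = 4) in NSC, 40.95% ± 6.1 (n = 4) at day 1 and 47.6% ± 18 (n = 4) at week 1. Leaving out week 1 replicate 2 turned the week 1 minus day 1 difference from 6.65 to -2.27 points, and the difference from NSC from 3.63 to -5.29. All 9 cytosines lay between 25 and 75% in each group, with reads of a group summed. The 300 bases of this promoter itself reach 50 bases past the start. Over them 27 listed cytosines gave 46.8% of 777 reads in NSC, 46.9% of 539 at day 1 and 38.6% of 280 at week 1. Many of the 27 were listed in few libraries. The 3 shared cytosines of the window had means of 47.2% ± 3.7 (SD, n = 4), 36.4% ± 4.5 (n = 4) and 60.8% ± 21.6 (n = 4). The order of day 1 and week 1 thus depended on which cytosines were summed. A later Gnas promoter (chr3:163084764-163085063) lay outside the half-methylated tiles. Its 1 shared cytosine read 62.5% ± 44.2 (SD, n = 2) in NSC, 95.7% (n = 1) at day 1 and 85% (n = 1) at week 1.

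A second tile (chr3:163117001-163118000) lay 32.2 kb past the last placed Gnas promoter and before that of Nelfcd, with no other gene start between in the table. It was singled out after its values were seen. It rested on 318 to 1900 summed reads per library over 18 shared cytosines. Its levels were 51.2, 54.6, 42.0 and 45.8% in NSC, 47.3, 32.4, 41.5, 55.7 and 53.7% at day 1, and 36.9, 51.8, 48.4 and 41.1% at week 1. The groups overlapped fully, and only 1 of the 13 libraries, day 1 replicate 2, fell outside the range of the rule. Means were 48.4% ± 5.6 (SD, n = 4), 46.1% ± 9.5 (n = 5) and 44.5% ± 6.8 (n = 4). All 18 cytosines read between 25 and 75% in every group.

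Mest, a paternally expressed gene of the hydrolase family, had 2 adjacent tiles. The tile over its placed promoter (chr4:59354001-59355000, 8 shared cytosines) read 42.9, 64.1, 42.5 and 44.4% in NSC, 52.8, 80, 50, 46.6 and 44.1% at day 1, and 25.6, 62.2, 50 and 31.8% at week 1. NSC replicate 2 and day 1 replicate 2 were the high libraries of their groups, and the groups overlapped. In NSC the 8 cytosines ranged from 46.7 to 50% with the 4 libraries summed, an SD of 0.992 points. Positions 59354706, 59354709, 59354715 and 59354721 each read 47.6% of 42 reads, so this SD does not rest on 8 independent values. None of these 8 lies within the promoter window, where 16 cytosines were listed in few libraries and gave 69.7% of 254 reads in NSC, 71.7% of 106 at day 1 and 23.1% of 26 at week 1. The tile before it (chr4:59353001-59354000, 3 shared cytosines) had means of 44.1% ± 9.9 (n = 4), 56.6% ± 15.2 (n = 3) and 40.8% ± 13.4 (n = 3) in NSC, day 1 and week 1.

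Of a list of 69 textbook imprinted genes, 49 were in the promoter table and 20 could be placed, with 21 promoters. Of the 21 promoters, 1 of Gnas and that of Mest fell in a half-methylated tile. In 11 windows there was no shared cytosine, Mest's among them, so much of the list could not be read. Where shared cytosines existed, Zdbf2 (32 cytosines) read 1.67% ± 0.67 (SD, n = 4) in NSC, Gab1 (14) read 0.0943% ± 0.19 and Ndn (5), a paternally expressed gene, read 24.9% ± 12.4.

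A further 4 tiles lay between placed promoters that enclose at most 14 genes, some of them of the list, so the tile cannot be tied to one gene. Not described are 2 tiles on chromosome 7 (chr7:107949001-107950000 and chr7:108011001-108012000), since their interval encloses 1289 genes, Dcn, Kcnk9 and Trappc9 of the list among them, and chr4:176386001-176387000, whose neighbours were not in the order of the table. Between Mrpl18 and LOC102553224, an interval with Igf2r, the receptor that clears the growth factor IGF2, and the transporter gene Slc22a2, the tile chr1:48008001-48009000 had 34 shared cytosines. It read 46.9, 55.8, 37.7 and 42.3% in NSC, 30.5, 0, 34.1, 68.7 and 20.6% at day 1 and 41.5, 19.6, 20.1 and 40.1% at week 1. The day 1 libraries spread over most of the scale. The lowest of them, replicate 2, had no methylated read among 60 summed over cytosines, against 350 to 587 in the others. Taken as independent, 60 reads without methylation allow up to 5%. One read can count at more than 1 cytosine, so this limit, and those given below for values of 0%, are too small. The week 1 minus day 1 difference of -0.461 points ran from -8.15 without day 1 replicate 2 to 9.01 without day 1 replicate 4. Between Mrpl23 and Igf2, an interval with the noncoding RNA gene H19, the tile chr1:197732001-197733000 read 46.1 to 63% in NSC, 65.9 to 90.3% at day 1 and 71.1 to 75% at week 1. Between Casd1 and Pdk4, an interval with Peg10, Sgce, Ppp1r9a and Asb4, the tile chr4:32843001-32844000 had means of 55.0, 76.4 and 77.0% in NSC, day 1 and week 1. Between LOC102553281 and LOC134486187, an interval with the retrogene Mcts2, the tile chr3:141163001-141164000 had means of 56.6% ± 4.7 (n = 4), 84.4% ± 15.9 (n = 4) and 84.5% ± 3.7 (n = 3). In the H19 and Mcts2 intervals no operated library overlapped the NSC libraries, and in the Igf2r interval the groups overlapped. Over all tiles tested, libraries did not overlap with NSC in 20.6% at day 1 and 16.8% at week 1. NSC levels chose these tiles, so nothing is read from the lack of overlap.

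**Figure D1:**
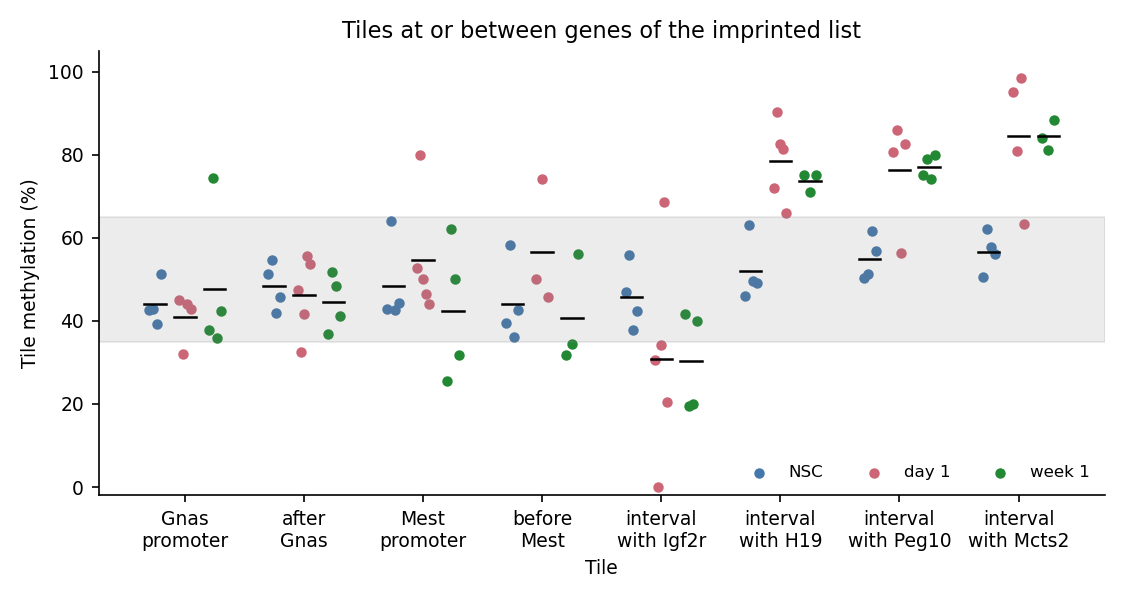
Tile methylation in percent (vertical axis) of 8 half-methylated tiles at or between genes of the imprinted list; points are libraries with 15 or more summed reads, bars are group means and the shaded range is 35 to 65%. Both tiles by Gnas have all group means between 40.95 and 48.4%, while the tiles of the H19, Peg10 and Mcts2 intervals have operated means of 73.7% or more.

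The tiles are named here by the rule, since allelic methylation was not measured. Median tile methylation was 50.4% in NSC, 64.2% at day 1 and 60.4% at week 1. Since NSC levels chose the tiles, the narrow range of the NSC libraries is fixed by the rule. Every difference from NSC given above or below is thus a description and not evidence of a change. At day 1 the tile means ran from 8.78 to 100%, with 101 above 65%, 87 within the range and 18 below 35%. At week 1 they ran from 4.29 to 93.2%, with 90 above, 94 within and 22 below.

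**Figure D2:**
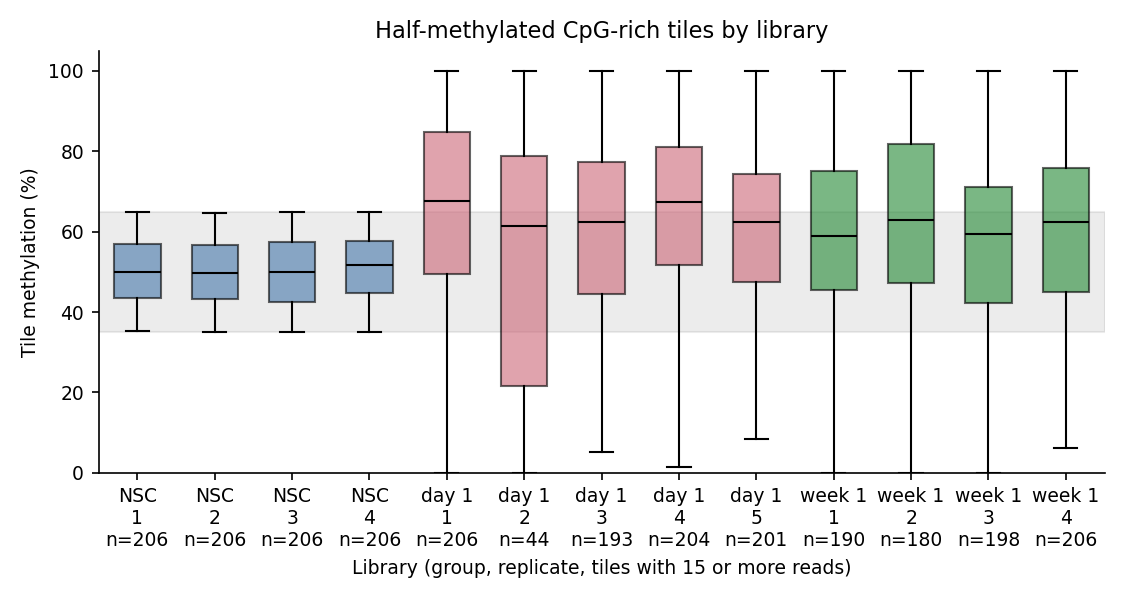
Methylation in percent of the 206 tiles in each library (box: quartiles and median; whiskers: lowest and highest tile; n: tiles with 15 or more reads), with the range of the rule shaded. Medians are 49.7 to 51.6% in the NSC libraries, 61.3 to 67.5% at day 1 and 59.0 to 62.95% at week 1.

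Taking both operated groups together, 71 tiles had both means between 35 and 65%, 82 had both above, 14 had both below and 39 fell otherwise. Only 5 had every day 1 and week 1 library with enough reads within the range: chr3:2577001-2578000, chr3:70218001-70219000, chr3:149277001-149278000, chr4:25715001-25716000 and chr5:151162001-151163000. Of the tested tiles, 34.1% of this set had both operated means within the range, against 27.0% of the 2168 tested tiles with the same NSC levels but fewer listed cytosines and 5.44% of all 63243 tiles tested, shares whose difference was not tested. Among the 5, chr3:70218001-70219000 (6 cytosines) read 57.8, 58.0, 57.8 and 58.2% in NSC, 54.3, 57.9, 58.4 and 58.9% in 4 day 1 libraries and 58.3, 60.4, 49.2 and 46.5% at week 1.

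**Figure D3:**
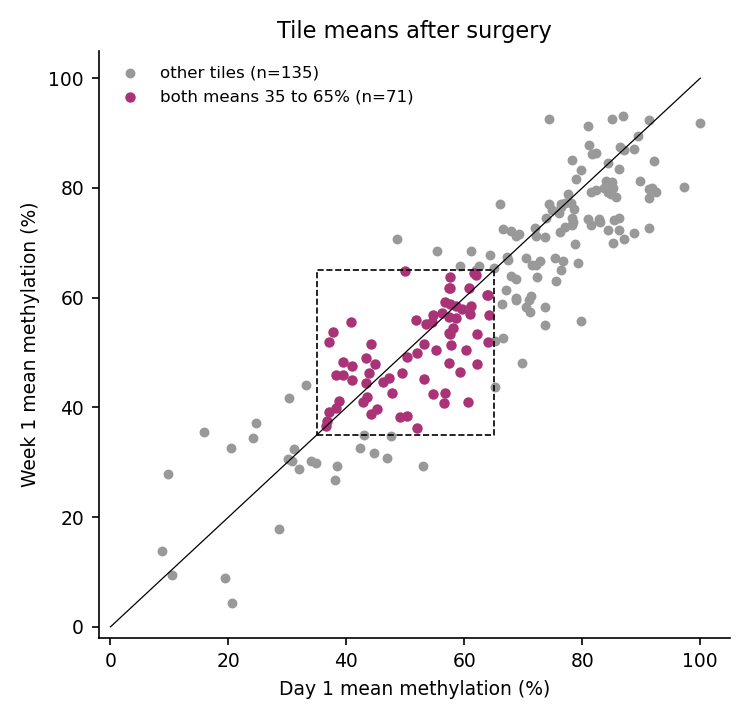
Mean methylation in percent of each of the 206 tiles at week 1 (vertical axis) against day 1 (horizontal axis), with the line of equality and a dashed box at 35 to 65%. The 71 tiles in the box are coloured, and 82 lie above 65% on both axes.

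Called differences from NSC are listed as a description. A call needed an edgeR quasi-likelihood adjusted p (Benjamini-Hochberg over all tiles tested) under 0.05 and 10 points or more between group means. At day 1, 70 of the 205 tested tiles were called (9.28% of all tiles), 62 higher (7.39%) and 8 lower (1.89%). At week 1, 29 were called (4.9%), 24 higher (3.58%) and 5 lower (1.32%). With each library centred on its own median, limma called 61 higher and 25 lower at day 1 and 36 higher and 16 lower at week 1, where limma without centring called 84 and 11, and 52 and 9. Libraries did not overlap with NSC in 102 tiles at day 1 (20.6% of all tiles), 90 higher (17.3%) and 12 lower (3.28%), and in 85 at week 1 (16.8%), 70 higher (13%) and 15 lower (3.78%). A tile near the middle has more room to move than one near either end, and the NSC levels that entered these contrasts chose the tiles, so nothing is read from these counts. The CpG-poorer tiles at the same NSC level had a median difference of 17.3 points at day 1 and 12.5 at week 1, where the CpG-rich set had 14.6 and 12.6.

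Among tiles whose libraries did not overlap NSC, the 3 highest differences at day 1 were in tiles with 3 shared cytosines each. Of these, the tile chr2:45289001-45290000 read 50, 43.3, 36.4 and 58.3% in NSC and 100% in each of the 3 day 1 libraries that covered it with 15 or more reads. A tile with more cytosines, chr13:90663001-90664000 (19 cytosines), read 62, 42.5, 43.5 and 54.8% in NSC, 89.6, 84, 89.5 and 77.3% at day 1 and 91.4, 88.1, 98.8 and 91.9% at week 1. Every operated library with enough reads was above every NSC library there. The tile chr10:54121001-54122000 (24 cytosines), within 10 kb of the promoters of Cyb5d1 and Naa38, the latter a subunit of an N-terminal acetyltransferase, was the deepest of the 206 by reads summed over libraries. It rested on 339 to 4766 reads per library and read 35.4 to 42% in NSC, 61.4 to 88.9% at day 1 and 57.4 to 83.3% at week 1. Its depth was uneven, so the tile value is weighted to a few cytosines. The deepest, position 54121622, read 21.1% of 1482 reads in NSC and 65.3% of 1168 at day 1. Shallower ones differed: position 54121682 read 95.2% of 62 and 88.2% of 51, and position 54121852 read 16.7% of 72 and 89.2% of 37.

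Tiles below NSC were fewer. The tile chr12:33938001-33939000 (10 cytosines), within 10 kb of the promoter of P2rx7, an ATP-gated ion channel of immune and other cells, read 55.9, 56.8, 50 and 39.2% in NSC. It read 1.98, 4.8, 5.2, 8.6 and 23.4% at day 1 and 18.3, 10.3, 18.2 and 8.7% at week 1, so every operated library was below every NSC library. The tile chr5:159391001-159392000 had 45 shared cytosines, of which 42 read between 25 and 75% in NSC and all 45 under 25% at day 1. Its libraries read 39.1, 60.2, 47.6 and 35.7% in NSC and 6.13, 10.02, 6.97 and 16.1% at day 1. At week 1 they split, with 14.1 and 6.5% in replicates 1 and 4 and 50 and 41.1% in replicates 2 and 3. The adjacent tile, chr5:159390001-159391000, had means of 47.99, 43.5 and 41.98% in NSC, day 1 and week 1 over only 4 cytosines. The tile chr9:95146001-95147000 lay below the range in both operated groups, with means of 55.9% ± 6.2 in NSC, 19.4% ± 4.9 at day 1 and 8.96% ± 4.9 at week 1 (n = 4 each).

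The only contrast whose methylation levels did not choose the tiles was week 1 against day 1. The libraries of these groups entered the rule only through the cytosines they listed. None of the 205 tiles was called (0 of all 63243 tiles, 0.0%), and the smallest adjusted p among them was 0.736 by edgeR's quasi-likelihood test. At an unadjusted p under 0.05 there were 19 tiles, 9.27%, where all tiles gave 6.25%. Limma on tile percent called none either. With the dispersion set to 0, a quasi-binomial fit added after the data were seen, 1 tile was called. It was chr7:30237001-30238000, at 68.5, 62.6, 69.7 and 60.2% in day 1 replicates 1, 3, 4 and 5 and 40.7, 55.5, 32.4 and 46.2% at week 1, whose libraries do not overlap and whose adjusted p was 0.0183 by that fit and 0.744 by the main edgeR test. The test had little power on simulated counts for this contrast over the same 63243 tiles, with an assumed spread. A true log2 odds ratio of 1 was recovered after adjustment in 0 of 67 tiles, one of 2, which takes a tile from 50 to 80%, in 1 of 67, and one of 4 in 27 of 66. The changed tiles were drawn from those with 15 or more reads in every library, which most of the 206 tiles lack. Recovery after adjustment also depends on how few tiles were changed, so these shares are not the power for this set. The absence of calls therefore does not show that the 2 tissues were alike. The median difference was -2.81 points, against -0.808 over all tiles tested, and -0.258 with each library centred. Week 1 lay below day 1 in 130 of 206 tiles. It lay above day 1 in 36.6% of the tested tiles of the set and in 37.1% of all tiles tested, so this count is not particular to the set. The 2 groups did not overlap in 16 tiles (5.09% of all tiles), 15 with week 1 lower (3.82%) and 1 with it higher (1.27%), chr14:3806001-3807000, at 85.2, 67.4, 87.3 and 83.6% in 4 day 1 libraries and 91.6, 94.3 and 87.8% in 3 of week 1.

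The lowest week 1 value relative to day 1 was at chr14:94862001-94863000 (11 cytosines). The 4 day 1 libraries with enough reads were at 76.9, 77.6, 79.3 and 85.3%, and those of week 1 at 48, 63.2, 49.4 and 62.7%, with NSC at 46.1 to 62.9%. Week 1 was 23.95 points below day 1 with no overlap, at a log2 odds ratio of -1.65 (approximate SE 0.51) and an adjusted p of 0.736 by edgeR. The tiles chr9:64122001-64123000 and chr3:112974001-112975000, the latter over the promoter of the adaptor gene Shc4, were 23.6 and 21.7 points lower. The 300-base window of Shc4 itself read 0.85% of 235 reads in NSC, 4.67% of 214 at day 1 and 0% of 152 at week 1 (at most 1.97% if counts were independent). The tile's difference was thus not read at the promoter. The highest were chr3:11802001-11803000 over the promoter of Mrps2, a protein of the small mitochondrial ribosome subunit, at 22.1 points, chr13:99163001-99164000 at 19.7 and chr1:160113001-160114000 at 18.15. The Mrps2 window read 0.073% of 1367 reads in NSC, 0% of 780 at day 1 (at most 0.385% if counts were independent) and 0.61% of 656 at week 1. Most of these reads lay past the tile's end. Every listed cytosine of the window within the tile read 0% in each group with reads, so this difference too lay outside the window. These 3 differences fell to 12.3 points without week 1 replicate 4, 9.98 without week 1 replicate 3 and 10.5 without day 1 replicate 5. Adjusted p-values of the 5 tiles after the first ran from 0.785 to 0.958 by edgeR.

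Single cytosines separated tiles of unlike makeup. The 206 tiles had 1871 shared cytosines, 3 to 53 per tile. In NSC 70.02% of them read between 25 and 75%, 14.8% under 25% and 15.2% over 75%. At day 1 only 41.2% were in the middle and 40.3% were over 75%, and at week 1 these shares were 48.3 and 33.6%. The NSC cytosines belong to tiles picked for a middle mean, so their share is partly fixed by the rule, and reads per cytosine also differed, with a median of 75 in NSC, 54 at day 1 and 41 at week 1.

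**Figure D4:**
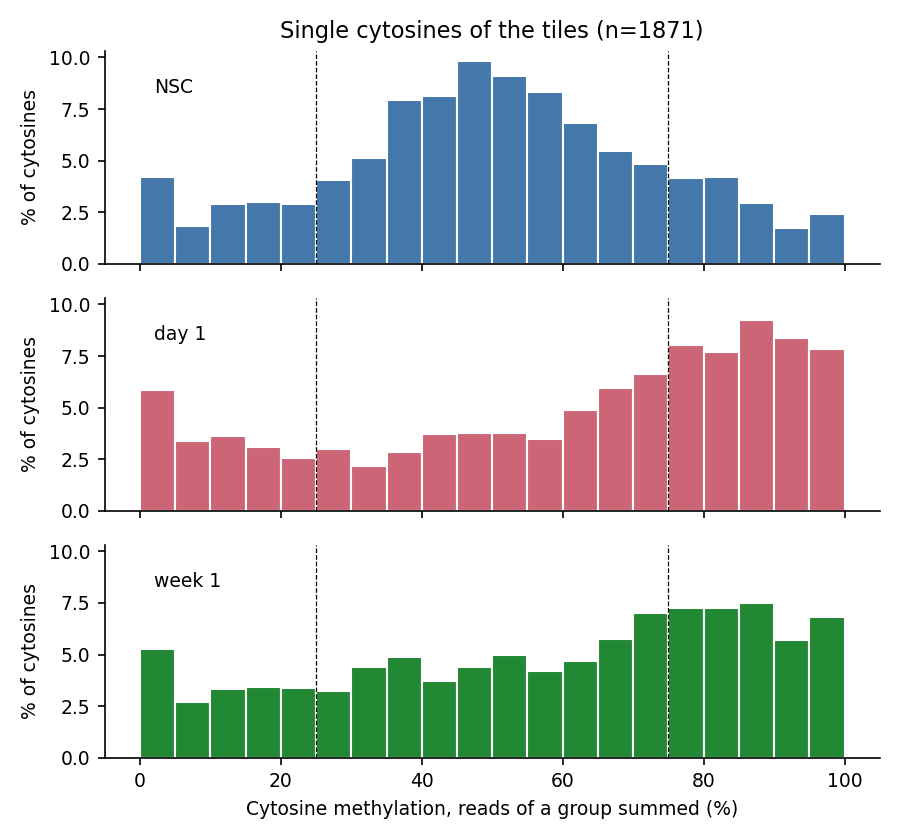
Share of the 1871 shared cytosines of the tiles (vertical axis, percent) by methylation in 5-point bins, with the reads of a group summed, for NSC, day 1 and week 1; dashed lines mark 25 and 75%. The share between the lines is 70.02% in NSC, 41.2% at day 1 and 48.3% at week 1.

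In 115 tiles at least 75% of the cytosines were in the middle range in NSC, while 80 tiles held both a cytosine under 25% and one over 75%. With all 3 groups required to have 75% of cytosines in the middle and both operated means within 35 to 65%, 15 tiles were left. Both tiles by Gnas and both by Mest were among them. The others included chr10:87395001-87396000 (15 cytosines), within 10 kb of the promoter of Grn, a secreted growth regulator, and chr2:3045001-3046000 (13 cytosines), with means of 53.8, 57.5 and 56.5%. This grouping uses the operated levels and was made after they were seen.

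At the other extreme, a middle mean came from unlike neighbours. In chr9:105120001-105121000 (7 cytosines) the group-summed cytosines ran from 0 to 100% in NSC, and 2 were under 25% in every group while at least 4 were over 75%. Its tile means were 59.0, 59.6 and 58.02%, so a steady mean did not require steady cytosines in the middle. In chr5:68139001-68140000 (14 cytosines) 4 were under 25% and 7 over 75% in NSC, and 5 and 8 in both operated groups. The widest tile by cytosine number, chr3:2577001-2578000 with 53, held 14 under and 18 over in NSC and kept means of 50.2, 57.6 and 53.4%.

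**Figure D5:**
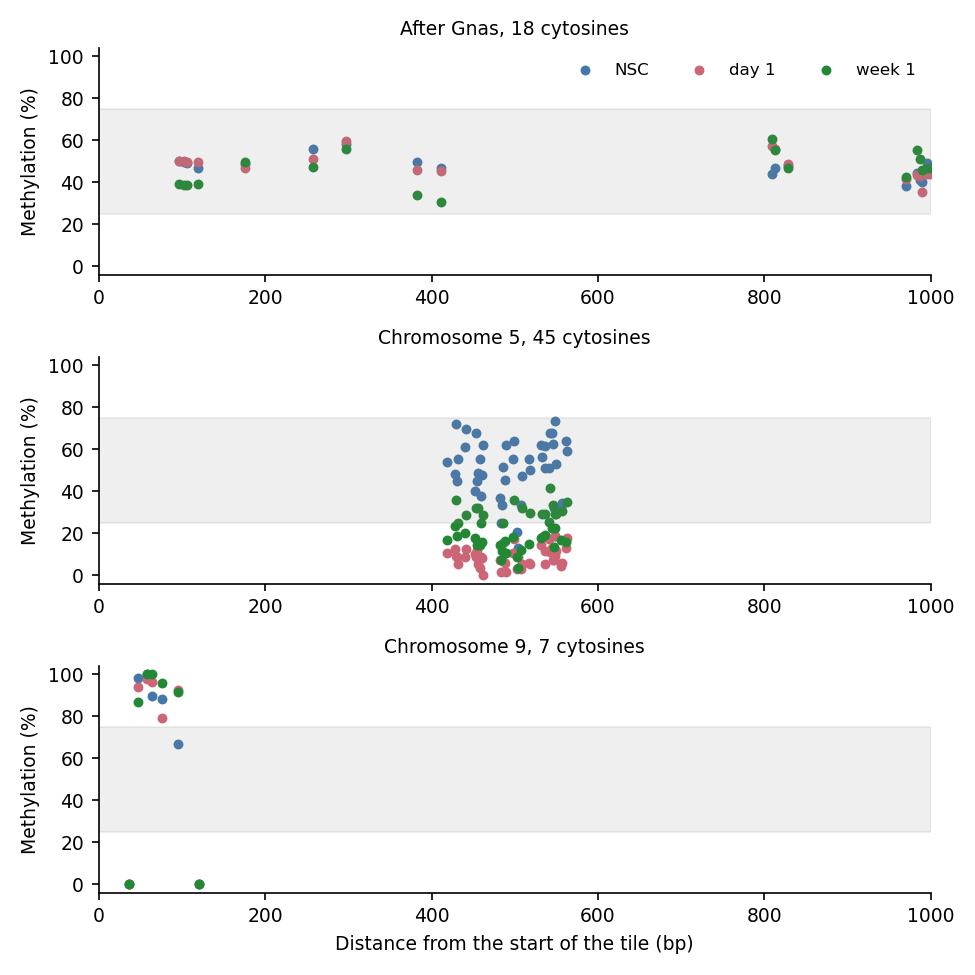
Methylation in percent of each shared cytosine (reads of a group summed) by its distance in bp from the tile's start, in 3 tiles, with 25 to 75% shaded. The 18 cytosines after Gnas are all in the shaded range in every group, the 45 on chromosome 5 are under 25% at day 1, and 2 of the 7 on chromosome 9 are under 25% in every group.

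Both strands of a CpG were shared in 146 CpGs of 33 tiles. The strands differed by a median of 8.54 points in NSC, 7.21 at day 1 and 8.43 at week 1. They lay within 20 points of each other in 81.5% of these CpGs in NSC, 87.7% at day 1 and 93.2% at week 1. Both strands read between 25 and 75% in 99 CpGs in NSC, 36 at day 1 and 49 at week 1. These CpGs were spread unevenly over the 33 tiles. Many lay in the tile starting at chr3:2577001 and in the one at chr5:159391001, whose shared cytosines were all under 25% at day 1.

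Half-methylated tiles overlapped a placed promoter in 8.25% of cases, CpG-rich tiles outside the range in 24.1%, those with an NSC mean under 10% in 34.6% and those over 80% in 1.63%. Of the 18 promoter windows in the tiles, 7 read under 25% in NSC and 11 between 25 and 75%, over all listed cytosines and reads. The window of Entpd6, an enzyme that hydrolyses nucleoside diphosphates, read 0.20% of 506 reads in NSC, 0% of 398 at day 1 (at most 0.754% if counts were independent) and 0.52% of 193 at week 1. These reads came from 1 to 3 libraries a group, and the tile had means of 52.1, 73.9 and 74.6%. The windows of Pop5, a subunit of RNase P, and Spock1, a secreted proteoglycan, read 0% of 279 reads (at most 1.08% if counts were independent) and 0.11% of 946 in NSC. In these 3 tiles the cytosines with methylated reads thus lay almost wholly outside the promoter window. Tm6sf2, a membrane protein of lipid secretion, and the transcription factor gene Ascl5 had middle levels with all reads of the window summed. These were 50.8, 42.5 and 46.9% in NSC, day 1 and week 1 for Tm6sf2, and 50.5, 54.5 and 36.1% for Ascl5. In the operated groups both values mixed unlike cytosines. In Tm6sf2, position 19351472 read 65.1, 83.3 and 88.9% and position 19351653 read 40, 5.13 and 4.17%. In Ascl5, position 47491785 read 58.8, 47.4 and 38.5% and position 47491793 read 36.8, 10.5 and 2.63%. The hexamer TGCCGC, searched on both strands (as GCGGCA on the other), which the imprint-keeping factor ZFP57 binds when methylated, occurred in 3 of the 18 windows (Mrps2, Tm6sf2 and Spock1), in 22.0% of placed promoters and in 11.7% of all 33469.

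The tiles lay on all 20 chromosomes, from 3 on chromosome 6 to 21 each on chromosomes 1 and 3. Most stood alone: 4 pairs were adjacent, and 11 groups with neighbours less than 100 kb apart took in 25 tiles. The largest group was 5 tiles in 140 kb of chromosome 18 (29510001 to 29650000), with placed promoters of Pcdhga8 and Pcdhga11 near 3 of them. These genes encode protocadherins, adhesion proteins with many alternative promoters in a row. In 4 of the 5 tiles the operated means stayed within the range, for example 44.6% ± 3.8 (SD, n = 4), 38.7% ± 13.5 (n = 5) and 41.1% ± 3.5 (n = 4) at chr18:29593001-29594000 over 19 cytosines. The other, chr18:29649001-29650000, had means of 52.1, 67.4 and 66.9%. Of tiles 1 kb before or after the set, 45 and 48 could be read, with median NSC levels of 55.5 and 50.03% and quartiles from 22.02 to 72.3% and from 28.5 to 66.1%.

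The median SD of a tile between libraries was 6.57 points in NSC, 8.75 at day 1 and 9.56 at week 1, where the summed reads alone would give 4.20, 4.86 and 5.42. Because one read can count at more than 1 cytosine, the value from counting is too small, and the NSC spread is bounded by the rule, so no excess is read from these values. Summed reads per library ran from 9676493 (day 1 replicate 2) to 49782600 (NSC replicate 1), and day 1 replicate 2 reached 15 reads in only 44 of the 206 tiles. Around the edge of the range, 39 with the lowest NSC library at 35 to 37% had a median day 1 mean of 61.0%, and 48 CpG-rich tiles with it at 33 to 35% had 58.5%. The 34 tiles with 40 or 41 listed cytosines had a median day 1 mean of 68.3%, and 50 tiles in the range with 38 or 39 had 71.9%.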

How the data were processed

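Per the labels' protocols, genomic DNA was cut with MspI, fragments above 300 bp were removed, and bisulfite-converted DNA was sequenced. The submitters' processing notes give Bismark 0.23.0, methylKit 1.14.2, FastQC and Trim Galore, and mRatBN7.2 as the build, with no roles. The deposited files give, per cytosine and strand, counts of methylated and of all reads and the methylation percent, which equals their truncated ratio. Every listed cytosine had at least 5 reads. The counts were used as deposited. The 5 reads needed to be listed mean that a cytosine can be absent from a shallow library for depth alone.

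Of 14 samples, 13 had a file. Replicates were numbered in accession order and pair no samples. No batch was given. The sample codes follow the groups, so processing order and group cannot be told apart. For the test, edgeR 4.0.16 (R 4.3.3) fitted all 3 groups at once to each tile's pair of summed counts, with an effect per library, group effects on methylation, a common dispersion and the quasi-likelihood test. It ran on 63243 tiles that had 3 or more shared cytosines and, in 3 or more libraries of every group, at least 15 reads. Group means use libraries with 15 or more reads. Of the 206 tiles 205 passed. SEs of log2 odds ratios are the absolute value over the square root of F, an approximation. Alternatives were limma 3.58.1 on tile percent, other read and cytosine minimums, other forms of the rule and fits without each library. The rest was computed with Python 3.11.15 and pandas 2.3.3.

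The fit was tested on simulated data with an assumed beta-binomial correlation of 0.05. A first simulation with log2 odds ratios of 1 and 2 recovered no changed tile after adjustment. The size 4 was added after that, and the version quoted holds sizes 1, 2 and 4. It called 0 unchanged tiles.

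The tiles and lists were chosen with earlier results of these data known. Named tiles are the 6 with the most shared cytosines, the 3 highest and 3 lowest week 1 minus day 1, the 3 highest and 3 lowest differences from NSC in each operated group without overlap, the 4 smallest and 3 largest SDs over cytosines, 3 runs of adjacent tiles and tiles at promoters of the imprinted list; tiles outside this rule were chosen after their values were seen.

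No annotation of the files' build was used. Placing promoters by CpG spacing was chosen after seeing the data. It required at least 12 listed cytosines, 40% of the promoter's CpG cytosines listed and no listed cytosine off a CpG. These minimums were picked from 35 pairs as one of 21 without a match on another chromosome near the tiles, so that absence is no independent check. With 10 cytosines in place of 12 there were 59 matches on the right chromosome and 4 on others. Of 7203 neighbouring placed pairs 99.8% stood in the order of the RefSeq table, which was not used to pick the minimums. Of the 31 named tiles not all are described.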

Additional observations from a re-analysis of the deposited data

Results flagged for a closer look

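In 82 groups of 4 or 5 libraries of the named tiles, 5 had 1 library far from the others of its group by Dixon's ratio at its 95% level, 6.1%, where chance flags about 1 in 20. In the tile over the first placed Gnas promoter, day 1 replicate 3 read 31.9% (47 reads) against 42.9 to 44.96% in the other 3 libraries, and week 1 replicate 2 read 74.4% (78 reads) against 35.9 to 42.3%. In the tile over the Mest promoter, NSC replicate 2 read 64.1% (103 reads) against 42.5 to 44.4%, and day 1 replicate 2 read 80% (20 reads) against 44.1 to 52.8%. In the tile chr10:102014001-102015000, NSC replicate 2 read 64.3% (112 reads) against 40.9 to 44.6%.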

How the results depend on the processing

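No paired analysis was possible because the labels carry no replicate numbers. Depth limits the set most in day 1 replicate 2, and no interval covers more than counting error. Where a cause of a shift is not stated by the alternative's construction, the cause was not tested.

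The 70 tiles called against NSC at day 1 became 24 with 10 reads per cytosine, 113 with the quasi-binomial fit, and 38 to 71 without 1 library each (43 without NSC replicate 1, 38 without day 1 replicate 1, 40 without day 1 replicate 4). The 29 at week 1 became 61 with limma, 52 with limma on centred libraries, 82 with the quasi-binomial fit and 15 to 32 without 1 library each (16, 19 and 18 without NSC replicates 1, 2 and 3, and 19 and 15 without week 1 replicates 2 and 4). Between week 1 and day 1 the quasi-binomial fit called 1 of the tiles and 9 of all tiles. With 10 reads per cytosine 2 of all tiles were called, and 0 to 1 without 1 library each. The other alternatives called 0.

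The median difference fell from 14.6 to 5.26 points at day 1 and from 12.6 to 5.94 at week 1 with centred libraries, and from -2.81 to -0.258 for week 1 minus day 1. At week 1 it was 9.25 with 10 reads per cytosine, 10.3 with 5 cytosines per tile and 9.45 to 13.8 without 1 library each.

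The number of tiles (206), those with every operated library in range (5), those with both operated means in range (71) and the percent of NSC cytosines between 25 and 75% (70.02) depend on the rule. With 40 to 60% they were 62, 0, 12 and 67.3, and with 30 to 70% 442, 49, 194 and 68.2. With 30 listed cytosines the counts were 533, 12 and 161, and with 50 they were 84, 1 and 34, at 71.8% of cytosines. Summing every listed cytosine gave 298 tiles, 116 of them shared with the 206. Of those, 10 had every operated library in range, and 54.6, 35.2 and 38.1% of cytosines lay in the middle in NSC, day 1 and week 1. Tiles shifted along the chromosome gave 73.3% in NSC. Without 1 library each there were 280 to 313 tiles where an NSC library was left out, 5 to 10 with every operated library in range and 68.4 to 70.02% of NSC cytosines in the middle. Group means in place of every library gave 71 for the 5.

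Over 31 named tiles, 26 of 591 alternative values of week 1 minus day 1 changed sign, in 10 tiles, and 0 passed the threshold (lowest adjusted p 0.0762 by edgeR or limma). With 10 reads per cytosine the difference was -7.78 points at chr2:1499001 and -5.66 at chr14:78489001, and with centred libraries 1.90 at chr5:159390001. Without 1 library each it ran from -24.8 to 7.71 at chr10:102014001, -3.03 to 5.64 at chr14:78489001, -8.15 to 9.01 at chr1:48008001, -1.85 to 11.2 at chr2:1499001, -0.644 to 2.78 at chr2:45665001, -6.92 to 4.75 at chr3:141163001, -2.27 to 10.6 at chr3:163071001 (Gnas), -9.72 to 4.48 at chr5:159390001, -6.96 to 9.60 at chr5:68139001 and -7.72 to 4.24 at chr9:105120001.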
